A study of Mus musculus with 8 samples.

Results

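The genes examined here are 32 genes of cholesterol metabolism, taken by symbol from the 24532 gene identifiers in each library. They comprise 19 enzymes of cholesterol synthesis, 5 genes of sterol sensing and transport, 6 liver X receptor and efflux genes, and 2 acyltransferases that esterify cholesterol. No receptor for lipoprotein uptake is among the 32. mRNA had been sequenced from 2 tissues, liver and subcutaneous fat, of male C57BL/6 mice, WT or MKRN1-null. By the sample labels they had received a high-fat diet (HFD) for 19 weeks from 6 weeks of age and were 24 weeks old. These figures do not add up exactly, and the paper's methods give a shorter HFD. There were 2 libraries of each genotype in each tissue, 8 in all. MKRN1 is an E3 ubiquitin ligase. The MKRN1-null allele is germline and had been backcrossed to C57BL/6, the WT mice were littermates from heterozygous crosses, and all groups shared the HFD. A p from 2 libraries per genotype measures only the spread between these libraries.

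Cells make cholesterol from acetyl-CoA through mevalonate, isoprenoid diphosphates, squalene and lanosterol. When sterols in the endoplasmic reticulum are low, SCAP carries the transcription factor SREBP2 (encoded by Srebf2) to the Golgi for cleavage, and the released factor switches on most enzymes of the pathway. INSIG proteins hold SCAP back when sterols are high. Oxidised sterols activate the liver X receptors, which switch on the transporters that move cholesterol out of the cell and, in liver, into bile.

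The genotype labels held for the targeted gene. Mkrn1 was at 9.42 and 10.1 FPKM in the WT livers and 2.86 and 2.21 in the MKRN1-null livers, and at 16.8 and 19.3 in WT fat and 4.58 and 2.90 in MKRN1-null fat. FPKM is a number of fragments scaled to the length of the transcript and the depth of the library. Depth was 28.3 to 45.7 M fragments. One library stood apart, the fat of MKRN1-null 2: the 8 skeletal muscle markers (Acta1, Ckm, Tnnt3, Myh4, Mylpf, Mb, Tnni2 and Tnnc2) summed to 93599 FPKM there, 17.6% of all FPKM, against 30.4 to 265 in the other fat libraries and 10.1 to 12.5 in the livers. The hepatocyte markers summed to 40224 to 49139.8 FPKM in the livers and the adipocyte markers to 16040.2 to 39507 in the fat libraries, as the tissue labels require.

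In WT mice liver and fat differed in which of the 32 genes they used most. By limma on log2(FPKM + 1), 31 of the 32 passed an adjusted p under 0.05 between WT liver and WT fat, 12 lower in liver and 19 higher. Soat1 met the filter of 1 FPKM through fat alone, and Soat2, Abcg5 and Abcg8 through liver alone. For these genes the filter fixed the direction of a call, and their calls are given as a description. Of the 19 enzymes, all above 1 FPKM in both tissues, 6 were lower in liver and 12 higher. Of 12799 genes tested, 80.2% passed, 62.3% lower and 17.9% higher in liver, so that the genes of cholesterol metabolism differed in the opposite balance to all genes. With median-of-ratios scaling the split was 4 lower and 21 higher, against 4391 and 4395 over all genes. In bulk tissue, fewer cells of a type and less RNA per cell cannot be told apart. The acyltransferases divided the tissues. Soat2, which esterifies cholesterol in hepatocytes and enterocytes, was at 29.5 and 23.9 FPKM in WT liver and 0.340 and 0.180 in WT fat, whereas Soat1, the form of most other cells, was at 0.962 and 0.776 in liver and 2.45 and 5.61 in fat. Abcg5 and Abcg8, the paired half-transporters that secrete sterols into bile, were at 31.7 to 44.4 and 22.9 to 34.6 FPKM in WT liver, whereas in fat Abcg5 was at or below 0.0321 FPKM and Abcg8 was listed at 0 in all 4 libraries. Abcg1, which moves cholesterol to high-density lipoprotein, was at 1.96 and 1.57 FPKM in WT liver and 10.3 and 12.3 in WT fat (log2 difference of liver from fat = -2.15 ± 0.14, adjusted p = 0.000142).

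**Figure D1:**
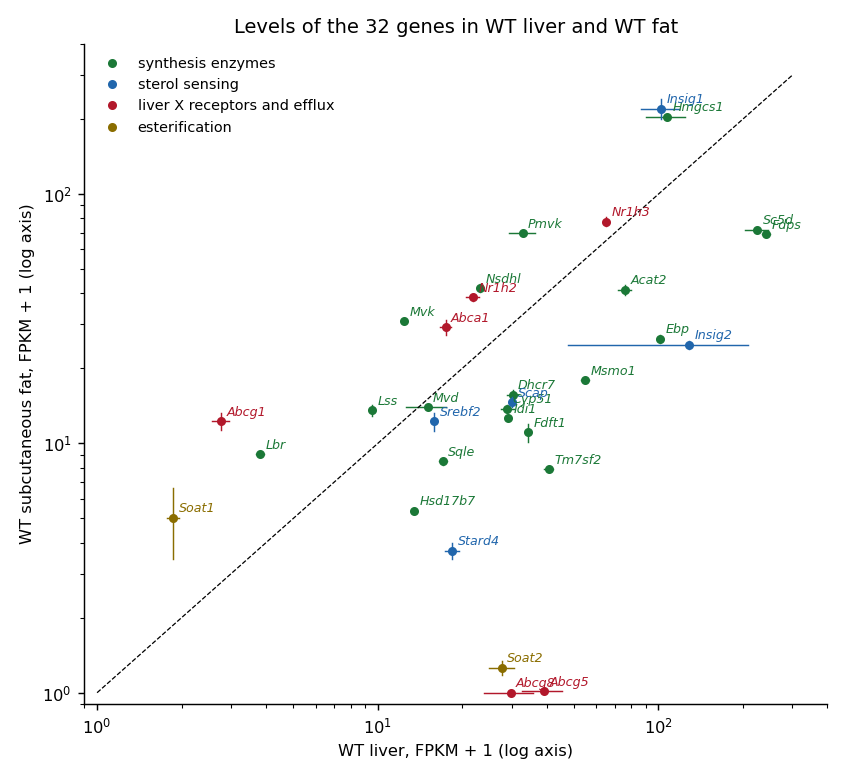
Levels of the 32 genes in WT liver (x axis) and WT subcutaneous fat (y axis), as FPKM + 1 on log axes. Points are means of 2 libraries, lines run from the lower to the higher library, and the dashed line marks equal levels. Soat2, Abcg5 and Abcg8 lie at the bottom, while Hmgcs1, Insig1, Pmvk, Mvk, Abcg1 and Lbr lie above the dashed line.

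The enzymes were not all higher in liver. Of the 19, 12 had both WT livers above both WT fat libraries and 6 had both below, Hmgcs1, Mvk, Pmvk, Lss, Lbr and Nsdhl, against 21.2% and 69.9% of all genes. The median log2 difference of liver from fat was -0.59 over all genes tested, and with median-of-ratios scaling Lss turned to 0.14 while the other 5 stayed negative, between -0.67 and -0.17. Mvd, which makes isopentenyl diphosphate, did not separate (11.6 and 16.5 FPKM in liver, 12.8 and 13.2 in fat). Hmgcs1, the cytosolic HMG-CoA synthase at the entry to the pathway, was the most abundant enzyme of WT fat, at 201 and 205 FPKM against 89.5 and 123 in WT liver. Fdps, the farnesyl diphosphate synthase, was the most abundant of WT liver, at 232 and 249 FPKM against 66.4 and 69.8 in WT fat. The 2 enzymes that can reduce the same sterol double bond differed in opposite directions: Tm7sf2 was at 41.2 and 38.1 FPKM in WT liver and 6.66 and 7.13 in fat, and Lbr, also a protein of the nuclear membrane, at 2.93 and 2.67 in liver and 7.90 and 8.24 in fat. Both differences passed (log2 = 2.37 ± 0.09, adjusted p = 3.19e-05, and -1.26 ± 0.10, adjusted p = 0.000306).

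Because SREBP2 acts with the CCAAT-binding factor NF-Y, the 250 bases before the transcription start were searched on both strands for the CCAAT box (CCAAT) and for a core of the sterol regulatory element (TCACNCNAC). RefSeq promoters on GRCm38.p6, which is mm10, matched 26 of the 32 genes. Fdps, Fdft1, Sqle, Stard4, Abcg1 and Soat2 had none. A CCAAT box was found in 15 of the 19 enzyme promoters (78.9%), which belong to 16 genes, in 3 of 7 promoters of sensing genes (42.9%) and in 1 of 7 of liver X receptor and efflux genes (14.3%), against 33.8% of all 32851 promoters of that length. The core of the sterol regulatory element was found in those of Hmgcs1 and Nsdhl alone among the 34 promoters of these genes (5.88%), against 2.26% of all. A match of letters is not evidence of binding, and no match says only that the letters are not in the window. The promoters of Hmgcs1, Mvd, Cyp51 and Insig1 are given as examples. Those of other genes past a rule, such as Sc5d, Dhcr7 and Lss, are not shown. Sequences run 5′ to 3′ on the strand of the gene and end at the base before its start. Motif matches on either strand are in capitals (ATTGG is CCAAT on the other strand).
Hmgcs1, chr13:119690101-119690350, plus strand: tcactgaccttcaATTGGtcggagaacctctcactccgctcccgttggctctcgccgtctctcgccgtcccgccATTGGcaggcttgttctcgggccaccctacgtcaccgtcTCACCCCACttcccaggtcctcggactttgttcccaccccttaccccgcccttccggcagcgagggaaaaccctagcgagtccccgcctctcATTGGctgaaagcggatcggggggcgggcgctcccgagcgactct
Mvd, chr8:122443423-122443672, minus strand: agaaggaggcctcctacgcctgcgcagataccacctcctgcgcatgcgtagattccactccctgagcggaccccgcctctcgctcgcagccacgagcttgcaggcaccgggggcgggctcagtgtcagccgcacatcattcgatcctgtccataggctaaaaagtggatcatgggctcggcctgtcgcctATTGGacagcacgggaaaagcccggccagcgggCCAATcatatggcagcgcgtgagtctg
Cyp51, chr5:4104698-4104947, minus strand: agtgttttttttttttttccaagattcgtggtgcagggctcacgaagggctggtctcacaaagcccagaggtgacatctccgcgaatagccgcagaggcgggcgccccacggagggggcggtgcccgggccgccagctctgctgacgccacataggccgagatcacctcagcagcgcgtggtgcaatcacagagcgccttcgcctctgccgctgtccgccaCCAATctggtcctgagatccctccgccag
Insig1, chr5:28071162-28071411, plus strand: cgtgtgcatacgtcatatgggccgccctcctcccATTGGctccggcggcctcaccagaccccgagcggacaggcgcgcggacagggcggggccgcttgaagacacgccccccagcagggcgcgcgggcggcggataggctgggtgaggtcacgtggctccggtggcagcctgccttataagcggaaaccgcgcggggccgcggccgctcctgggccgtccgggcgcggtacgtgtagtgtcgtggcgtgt
In Hmgcs1 the element core began at -137 from the start, with CCAAT boxes at -237, -176 and -45. Mvd had CCAAT boxes at -60 and -27, Cyp51 at -29 and Insig1 at -216.

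In the livers of MKRN1-null mice the enzymes of cholesterol synthesis were lower than in WT, with the largest fold changes at Mvd, Hmgcs1 and Fdps. Summed over the 19 enzymes, FPKM was 1019.9 and 1133 in the WT livers and 813 and 527 in the MKRN1-null livers. By limma, 2 of the 19 passed an adjusted p under 0.05, both lower (Hmgcs1 and Mvd), and 7 passed the study limits, all lower. The study limits are the paper's thresholds applied to limma, unadjusted p no higher than 0.05 and log2 fold change beyond 0.58 in either direction. In 17 of 19 both MKRN1-null livers were below both WT livers. The background was high: of 10822 genes tested in liver, 16.9% passed the adjusted threshold as lower and 2.51% as higher, 13.4% and 2.25% passed the study limits as lower and higher, and in 57.5% and 11.8% the groups did not overlap. The median log2 fold change was -0.58 over the enzymes and -0.175 over all genes tested. A share of 2 in 19 at the adjusted threshold is no larger than the background, whereas 7 in 19 and 17 in 19 are above it.

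Hmgcs1 (chr13:119690351-119708260) was at 89.5 and 123 FPKM in the WT livers and 49.4 and 23.7 in the MKRN1-null livers. Its MKRN1-null mean was 0.345 times the WT mean (log2 fold change = -1.58 ± 0.37, adjusted p = 0.0472). Mvd (chr8:122433596-122443422) was at 11.6 and 16.5 FPKM in WT against 5.41 and 2.51 in MKRN1-null livers, 0.282 times the WT mean (log2 fold change = -1.65 ± 0.33, adjusted p = 0.0354). Both genes fell with no overlap between the genotypes. These calls depended on each WT library and on MKRN1-null 2. The adjusted p of Hmgcs1 was 0.0968 without WT 1, 0.130 without WT 2, 0.107 without MKRN1-null 2 and 0.0314 without MKRN1-null 1, and that of Mvd was 0.0725, 0.0958, 0.102 and 0.0325. With median-of-ratios scaling they were 0.0882 and 0.0631, with log2 fold changes of -1.37 and -1.47.

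A further 5 enzymes passed the study limits but not the adjusted threshold in liver (adjusted p = 0.0563 to 0.0869). Fdps (chr3:89093588-89101967) was at 232 and 249 FPKM in WT against 147 and 67.1 in MKRN1-null livers. Sqle, the squalene monooxygenase, was at 16.6 and 15.5 in WT against 10.5 and 6.20 in MKRN1-null livers. Cyp51, which removes a methyl group from lanosterol, was at 26.4 and 29.5 and at 20.9 and 13.3. In these 3, as in the next 2, MKRN1-null 2 was the lowest library and no MKRN1-null liver reached a WT liver. Sc5d, a sterol desaturase late in the pathway, was at 203 and 244 FPKM in WT against 152 and 104 in MKRN1-null livers. Dhcr7, the reductase of the last step of one branch, was at 27.8 and 30.7 and at 20.9 and 11.5. The log2 fold changes of the 5 lay between -1.26 for Fdps and -0.71 for Cyp51. Of the 5, Sc5d still passed these limits without WT 1 (-0.95), Sqle without WT 2 (-0.95) and Fdps without MKRN1-null 2 (-0.70), and the others did not. Without MKRN1-null 1 all 5 passed. With median-of-ratios scaling Cyp51 (-0.51) and Dhcr7 (-0.67) did not pass.

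The other 12 enzymes passed neither rule in liver. In 10 of them, Acat2 (the cytosolic thiolase of the first step), Mvk, Pmvk, Idi1, Fdft1, Lss, Lbr, Msmo1, Nsdhl and Hsd17b7, both MKRN1-null livers were below both WT livers, with log2 fold changes of -0.70 to -0.23 and adjusted p of 0.0602 to 0.273. Tm7sf2 went the other way, at 41.2 and 38.1 FPKM in WT against 52.7 and 45.8 in MKRN1-null livers (log2 fold change = 0.30 ± 0.10, adjusted p = 0.103). With median-of-ratios scaling and with quantile normalization it passed as higher (0.51, adjusted p = 0.0457, and 0.48, adjusted p = 0.0446). Ebp, the sterol isomerase, was among the 4 most abundant enzymes of liver and overlapped between genotypes, at 98.2 and 103 FPKM in WT against 119.6 and 102 in MKRN1-null livers.

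**Figure D2:**
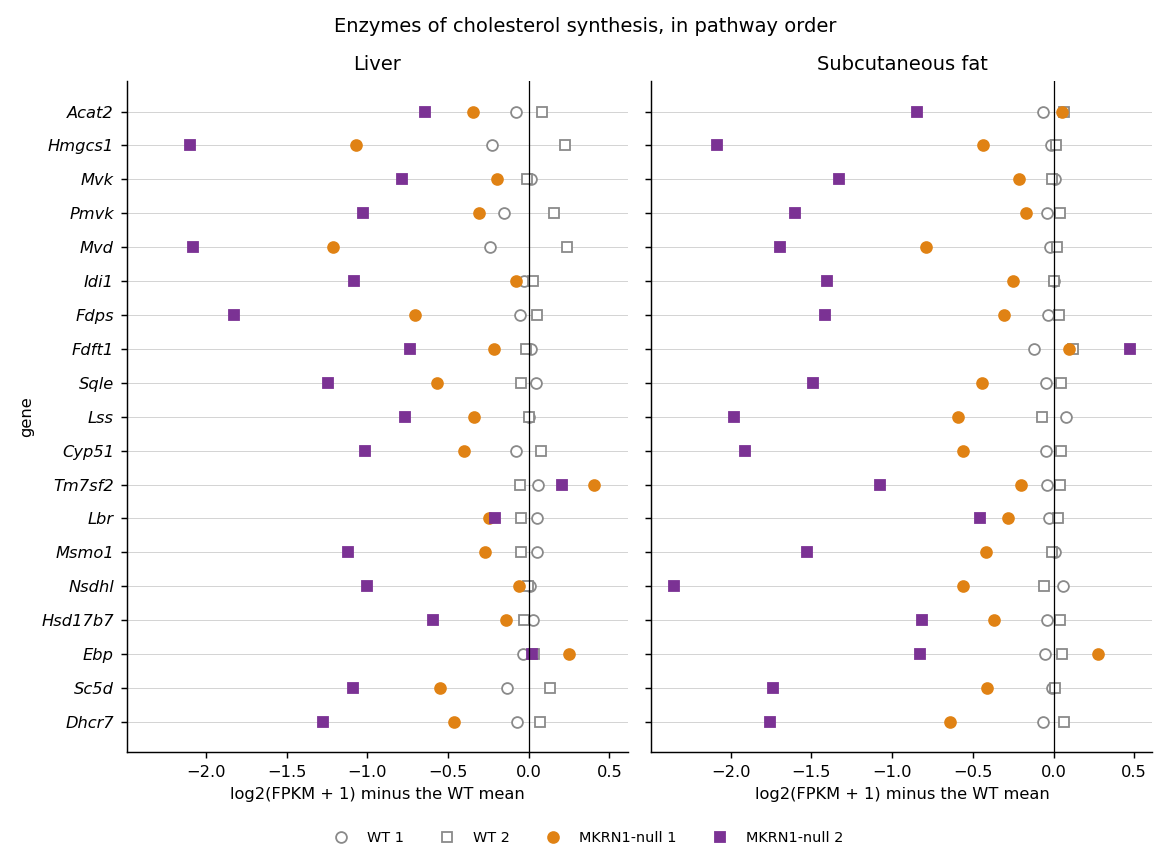
The 19 enzymes in pathway order, with log2(FPKM + 1) of each library minus the mean of the 2 WT libraries of the tissue on the x axis. Open grey symbols are WT, filled symbols MKRN1-null, circles replicate 1 and squares replicate 2. Purple squares lie left of orange circles for 18 of 19 enzymes in both tissues.

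In the enzymes, the MKRN1-null livers differed from each other by more than the WT livers did. MKRN1-null 2 was below MKRN1-null 1 for 18 of 19 enzymes, with a median log2 difference of -0.62, against 0.06 between the WT livers. Over all genes tested, 50.4% were lower in MKRN1-null 2 than in MKRN1-null 1. Against the WT mean, the median over the enzymes was -0.31 in MKRN1-null 1 and -1.02 in MKRN1-null 2, whereas the median of all genes tested was -0.18 in both. Without MKRN1-null 1, 10 of the 31 genes tested passed the adjusted threshold and 18 the study limits, all lower, against 3.24% and 14.4% of all genes. Without MKRN1-null 2, none passed the adjusted threshold by limma, and 4 passed the study limits as lower (Hmgcs1, Mvd, Fdps and Abcg1), against 11.9% of all genes. Of these, Abcg1 met the filter of 1 FPKM through the WT livers alone, so that only a lower level could be called. Liver MKRN1-null 2 held no excess of muscle markers, at 12.5 summed FPKM against 10.1 to 12.2 in the other livers. The sums over the fibroblast and adipocyte lists were lower in both MKRN1-null livers. Fibroblast markers summed to 195 and 144 FPKM in the WT livers and 54.0 and 56.1 in the MKRN1-null livers. The adipocyte list summed to 145 and 132 and to 29.3 and 15.7. Adipoq and 2 others of that list were below 1 FPKM in all 4 livers, so its sum is not a measure of adipocytes there. The hepatocyte markers summed to 47093 and 40224 in WT and to 46414 and 49139.8 in MKRN1-null livers. The part of other cell types in the enzyme levels was not tested.

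In subcutaneous fat the enzymes were also lower in MKRN1-null mice, with no adjusted call. FPKM summed over the 19 enzymes was 657 and 675 in WT fat, 530.1 in MKRN1-null 1 and 217 in MKRN1-null 2. In 16 of 19 enzymes, all but Acat2, Fdft1 and Ebp, both MKRN1-null libraries were below both WT libraries. The enzymes' median log2 fold change was -0.88, against -0.198 over all genes tested. By limma none of 12164 genes tested (0%) passed an adjusted p under 0.05. At an unadjusted p under 0.05, 5 of the 29 tested genes of cholesterol metabolism were lower and none was higher, against 5.66% lower and 0.797% higher of all genes. The same 5 passed the study limits, against 5.36% lower and 0.707% higher of all genes. The groups did not overlap in 36.1% of genes as lower and 9.03% as higher. Without MKRN1-null 1, in a fit that rests on the library with muscle transcripts, 25 of the 29 passed the adjusted threshold as lower, against 43.7% of all genes.

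The 3 enzymes past the study limits in fat were Mvd, Lss and Dhcr7, each with an adjusted p of 0.680. Mvd was at 12.8 and 13.2 FPKM in WT fat and 7.11 and 3.32 in MKRN1-null fat (log2 fold change = -1.24 ± 0.35). Lss (chr10:76531605-76557139), which closes squalene epoxide to lanosterol, was at 13.3 and 11.9 in WT against 8.01 and 2.44 in MKRN1-null fat (-1.29 ± 0.49). Its span, introns included, overlaps that of 4930483K19Rik on the other strand by 11269 bases, and the libraries did not keep strand. Dhcr7 was at 14.0 and 15.4 and at 9.06 and 3.65 (-1.19 ± 0.41). In each, MKRN1-null 1 was below both WT libraries and MKRN1-null 2 lower again. With median-of-ratios scaling Mvd and Dhcr7 passed these limits and Lss did not (-1.09). Without fat WT 2 Dhcr7 did not (-1.13).

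The 4 most abundant enzymes of fat had the same order of libraries, without passing either rule. Hmgcs1 was at 201 and 205 FPKM in WT fat and 149.5 and 47.1 in MKRN1-null fat. Sc5d was at 70.6 and 71.5 and at 53.1 and 20.6. Pmvk, the phosphomevalonate kinase, was at 66.7 and 70.3 and at 60.8 and 21.9, and Fdps at 66.4 and 69.8 and at 54.9 and 24.9. Nsdhl had the largest fold change of the enzymes, -1.46 ± 0.62 on the log2 scale (42.6 and 39.3 FPKM in WT, 27.4 and 7.22 in MKRN1-null). In 3 enzymes MKRN1-null 1 was not below both WT libraries. Fdft1, the squalene synthase, was at 9.14 and 11.0 in WT against 10.8 and 14.3 in MKRN1-null fat. Acat2 was at 38.5 and 42.3 and at 41.8 and 22.0, and Ebp at 24.3 and 26.2 and at 30.8 and 13.8. The span of Fdft1, introns included, overlaps that of Ctsb on the other strand by 773 bases, and the libraries did not keep strand.

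Fat MKRN1-null 1 held few muscle transcripts (30.4 summed FPKM of the 8 markers, against 38.5 and 265 in WT fat), and 16 of its 19 enzymes were below both WT libraries, against 44.8% of all genes tested. Its median log2 difference from the WT mean was -0.37 over the enzymes and -0.04 over all genes. In MKRN1-null 2 the medians were -1.49 and -0.38, and 18 of 19 enzymes were below both WT libraries, against 71.1% of all genes. Adipocyte markers summed to 33346 and 37167 FPKM in WT fat, 39507 in MKRN1-null 1 and 16040.2 in MKRN1-null 2. Without MKRN1-null 2, 5 genes passed the study limits (Mvd, Lss, Dhcr7, Insig1 and Insig2), all lower, against 4.21% of all genes, and none of the 29 passed the adjusted threshold by limma. The part of the muscle transcripts in the values of MKRN1-null 2 was not tested.

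Liver and fat libraries share numbers in their titles, and whether a number stands for 1 mouse is not stated in the sources used here. Deviations of same-numbered liver and fat libraries from their group means correlated across genes at 0.059 in WT and 0.118 in MKRN1-null mice. In fat, as in liver, 18 of 19 enzymes were lower in MKRN1-null 2 than in MKRN1-null 1, with a median log2 difference of -1.11 against 0.07 between the WT libraries. In fat, unlike liver, 75.4% of all genes tested were also lower in MKRN1-null 2. Both MKRN1-null libraries were below both WT libraries in both tissues for 15 of 19 enzymes, against 22.6% of the 9917 genes tested in both.

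**Figure D3:**
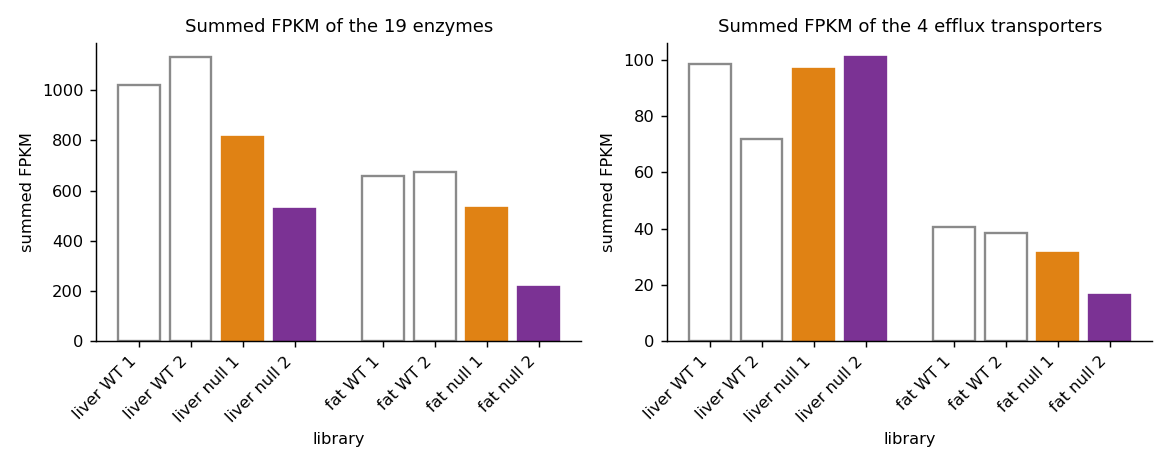
FPKM summed over the 19 enzymes (left) and over the efflux transporters Abca1, Abcg1, Abcg5 and Abcg8 (right) in each of the 8 libraries. Bars are single libraries, open for WT and filled for MKRN1-null. Enzyme sums in liver are 1019.9 and 1133 in WT and 813 and 527 in MKRN1-null, whereas efflux sums there are 98.4 and 71.7 in WT against 96.7 and 101 in MKRN1-null.

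Of the sensing genes, Srebf2 was lower in MKRN1-null libraries of both tissues. Srebf2 (chr15:82147269-82204960) was at 15.2 and 14.6 FPKM in the WT livers and 11.7 and 7.76 in the MKRN1-null livers, and passed the study limits (log2 fold change = -0.59 ± 0.19, adjusted p = 0.0897). It did not pass them without WT 1 (-0.57), WT 2 (-0.62) or MKRN1-null 2 (-0.32), or with median-of-ratios scaling (-0.40). In fat it was at 10.2 and 12.3 in WT against 8.72 and 6.63 in MKRN1-null libraries (-0.51 ± 0.24). Its introns hold Mir33. Scap, its escort protein, did not follow in liver. It was at 29.9 and 28.3 FPKM in WT against 35.9 and 31.9 in MKRN1-null livers (0.21 ± 0.09, adjusted p = 0.167), and at 14.3 and 13.0 and at 12.6 and 8.61 in fat.

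Insig1, itself a target of SREBP2, had the largest fold change of the 32 genes in fat. Insig1 (chr5:28071412-28078662) was at 239 and 199.8 FPKM in WT fat and 105 and 40.2 in MKRN1-null fat, 0.331 times the WT mean. It passed the study limits (log2 fold change = -1.73 ± 0.52, adjusted p = 0.680), and also did so without the library holding muscle transcripts (-1.05), but not without fat WT 1 (-1.60). In liver it was at 85.3 and 117 in WT against 83.3 and 54.0 in MKRN1-null libraries (-0.57 ± 0.26, adjusted p = 0.172). Stard4, which carries cholesterol between membranes, was at 2.44 and 2.97 FPKM in WT fat and 1.64 and 1.04 in MKRN1-null fat, past the study limits (-0.67 ± 0.22), but not without WT 1 (-0.77), WT 2 (-0.57) or MKRN1-null 2 (-0.48), or with median-of-ratios scaling (-0.51). In liver it was at 18.4 and 16.4 in WT against 19.2 and 22.2 in MKRN1-null libraries, with both MKRN1-null livers the higher (0.24 ± 0.11, adjusted p = 0.186).

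Insig2 was read from a first exon covered in liver and hardly in fat, and its last exon was poorly covered in 2 libraries. Gene FPKM was 46.6 and 208 in the WT livers, 90.8 and 37.6 in the MKRN1-null livers, 23.0 and 24.8 in WT fat and 9.37 and 20.6 in MKRN1-null fat. The annotation gives Insig2 (minus strand) an upstream first exon at chr1:121332492-121332589, a downstream first exon at chr1:121327691-121328024, and a further one at chr1:121327521-121327678. Coverage of the upstream exon per M fragments was 3.79 and 8.39 in the WT livers and 3.23 and 0.907 in the MKRN1-null livers, and at or below 0.0440 in every fat library. The downstream exon was at 0.159 to 0.417 in all 8 libraries and the further one at or below 0.180. The 250 bases before the upstream and downstream starts were as follows, with CCAAT boxes in capitals.
Insig2, upstream start, chr1:121332590-121332839, minus strand: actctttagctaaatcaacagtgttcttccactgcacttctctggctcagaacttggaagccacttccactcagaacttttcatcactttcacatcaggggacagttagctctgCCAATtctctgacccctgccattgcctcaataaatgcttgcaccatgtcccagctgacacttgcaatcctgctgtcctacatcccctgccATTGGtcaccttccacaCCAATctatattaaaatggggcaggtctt
Insig2, downstream start, chr1:121328025-121328274, minus strand: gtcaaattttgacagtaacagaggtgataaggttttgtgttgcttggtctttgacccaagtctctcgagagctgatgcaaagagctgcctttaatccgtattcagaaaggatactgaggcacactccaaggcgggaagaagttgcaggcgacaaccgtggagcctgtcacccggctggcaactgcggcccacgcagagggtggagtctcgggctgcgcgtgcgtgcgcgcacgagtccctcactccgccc
The window of the upstream start, whose exon was covered in liver, had CCAAT boxes at -136, -46 and -29. That of the downstream start had none, nor had that of the further one, which is not shown.

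The last exon of Insig2 (chr1:121304353-121305947, 1595 bases, most of the transcript) had little coverage in liver WT 1 and fat MKRN1-null 1. Its coverage was 0.147 times the mean of the 3 exons before it in liver WT 1 and 0.184 times in fat MKRN1-null 1, against 0.796 to 1.11 times in the other 6 libraries. Over those 3 inner exons, coverage per M fragments was 24.6 and 48.0 in the WT livers and 20.5 and 9.69 in the MKRN1-null livers. In fat it was 5.10 and 5.29 in WT against 4.84 and 4.58 in MKRN1-null libraries. By gene FPKM the log2 fold change was -0.74 in liver and -0.73 in fat, with no rule passed. By the inner exons, a measure chosen after the last exon had been seen, it was -1.27 and -0.14. In liver both MKRN1-null libraries were below both WT libraries by the inner exons but not by gene FPKM. Without liver WT 2, gene FPKM gave a log2 fold change of 0.33.

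**Figure D4:**
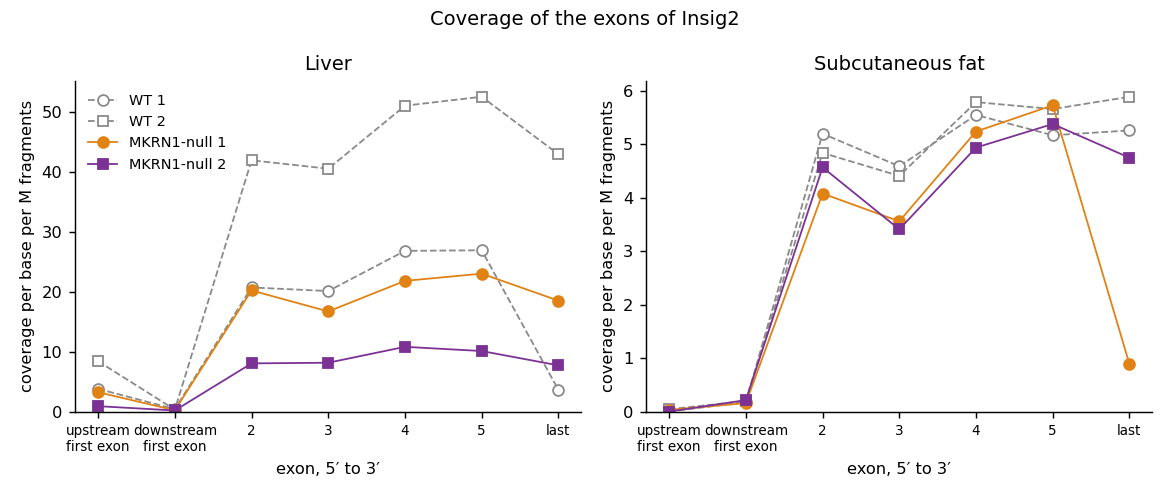
Coverage per base per M fragments of the exons of Insig2, in 5′ to 3′ order without the further first exon and a shorter form of exon 2, in the 4 liver libraries (left) and the 4 fat libraries (right). Each line is 1 library, dashed for WT. The upstream first exon is covered in liver only, and the last exon drops to 3.62 in liver WT 1 and 0.890 in fat MKRN1-null 1.

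**Figure D5:**
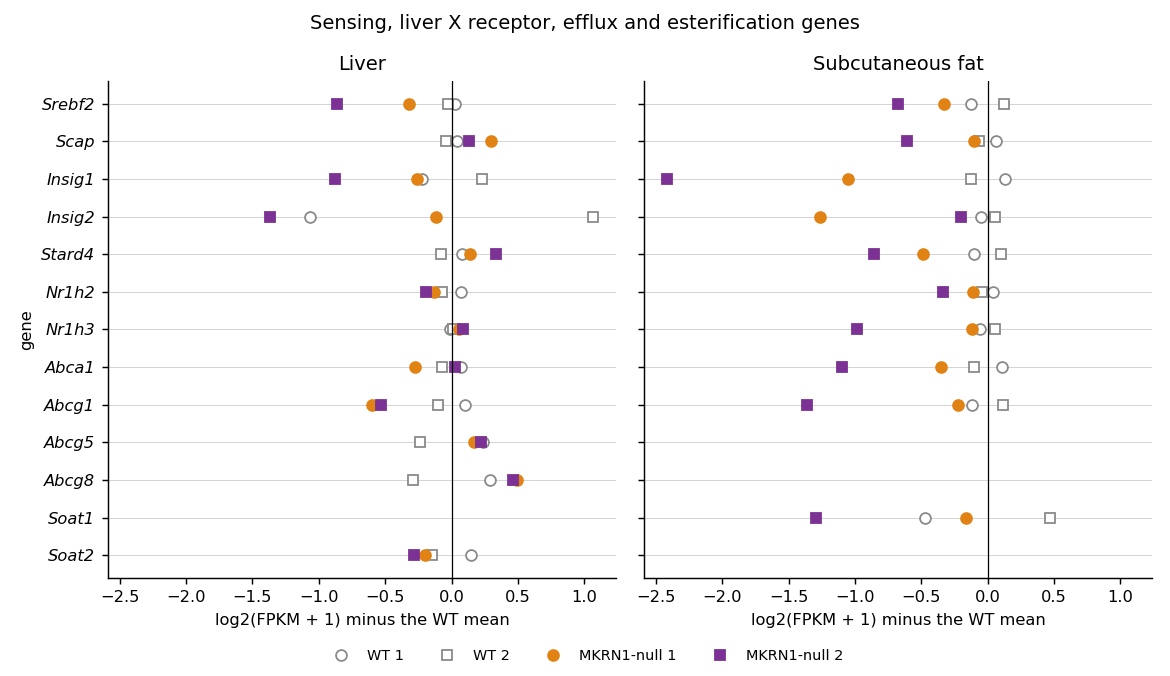
Sensing, liver X receptor, efflux and esterification genes, with log2(FPKM + 1) of each library minus the WT mean of the tissue on the x axis. Symbols are as for the enzymes, and genes below 1 FPKM in all 4 libraries of a tissue have none. In liver the values of Nr1h2, Nr1h3, Abca1 and Abcg5 stay near the WT mean, while Abcg1 lies to its left.

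The 6 liver X receptor and efflux genes went in both directions in liver, 3 with a negative and 3 with a positive log2 fold change, of which Nr1h2 and Abca1 turned positive with median-of-ratios scaling (0.04 and 0.07) and with quantile normalization (0.03 and 0.07). In 2 of them, Nr1h2 and Abcg1, both MKRN1-null livers were below both WT livers, and in 2, Nr1h3 and Abcg8, both were above, against 57.5% and 11.8% of all genes. Their median log2 fold change was -0.03, and 0.18 with median-of-ratios scaling. Whether they differed from the enzymes was not tested. The ratio of summed enzyme FPKM to summed efflux transporter FPKM was 10.4 and 15.8 in the WT livers and 8.41 and 5.23 in the MKRN1-null livers. Nr1h3, the liver X receptor α, was at 63.7 and 64.6 FPKM in WT against 66.7 and 68.2 in MKRN1-null livers. Nr1h2, the β form, was at 21.9 and 19.7 and at 18.9 and 18.1. Abca1, which loads cholesterol onto apolipoprotein A-I, was at 17.3 and 15.6 and at 13.4 and 16.7. None of these 3 passed either rule in liver (adjusted p = 0.250 to 0.516).

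Abcg1 (chr17:31057694-31117981) was low in liver, at 1.96 and 1.57 FPKM in WT, with MKRN1-null livers at 0.818 and 0.910. By limma its log2 fold change was -0.56 ± 0.12 (adjusted p = 0.0389). It met the filter of 1 FPKM through the WT livers alone, so that only a lower level in MKRN1-null livers could be called, and the call is given as a description. With no filter it did not pass (adjusted p = 0.0557), nor with median-of-ratios scaling (-0.45, adjusted p = 0.0699) or quantile normalization (-0.27, adjusted p = 0.144), with the replicate block or with all 8 libraries in one fit. It did not pass without either MKRN1-null liver (adjusted p = 0.165 and 0.170), and was not tested without a WT liver, since 1 FPKM was then reached in a single library. With a pseudocount of 0.1 in place of 1 the fold change was -0.94. In these livers 4 of 5 macrophage markers and all 4 endothelial markers also had both MKRN1-null libraries below both WT libraries, against 57.5% of all genes. Macrophage markers summed to 103 and 54.3 FPKM in WT against 49.6 and 53.4 in MKRN1-null livers, and endothelial markers to 37.7 and 23.3 and to 15.7 and 19.4. Abcg1 is well known in both cell types, and their part in its level was not tested.

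The biliary pair had positive log2 fold changes and passed neither rule. Abcg8 was at 34.6 and 22.9 FPKM in WT against 40.1 and 39.2 in MKRN1-null livers (log2 fold change = 0.48 ± 0.20, adjusted p = 0.150). Abcg5 was at 44.4 and 31.7 and at 42.4 and 44.0 (0.20 ± 0.17, adjusted p = 0.432). Both MKRN1-null livers were above both WT livers for Abcg8, whereas Abcg5 overlapped, and liver WT 2 was the lowest library for both. Abcg8 passed the study limits as higher with median-of-ratios scaling (0.68) and with quantile normalization (0.66), and not as reported. Without liver WT 1, Abcg8 passed as higher (0.77, adjusted p = 0.0415). Abcg5 and Abcg8 are annotated on opposite strands, and their spans, introns included, overlap by 6710 bases. How much of this overlap is exon was not measured, and the libraries did not keep strand.

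In fat 4 of the 6 were tested, and all 4 had both MKRN1-null libraries below both WT libraries, against 36.1% of all genes (median log2 fold change = -0.64, no rule passed). Nr1h3 was at 73.5 and 79.7 FPKM in WT fat and 70.3 and 38.1 in MKRN1-null fat, and Nr1h2 at 38.6 and 36.4 and at 34.7 and 29.5. Abca1 was at 30.4 and 26.1 and at 21.9 and 12.6, and Abcg1 at 10.3 and 12.3 and at 9.50 and 3.76. MKRN1-null 1 was near WT, with a median of -0.17 over the 4 genes, and MKRN1-null 2, the library with muscle transcripts, gave -1.04. In fat too, 4 of 5 macrophage markers and all 4 endothelial markers had both MKRN1-null libraries below both WT libraries. Macrophage markers summed to 200.1 and 281 FPKM in WT fat and 191 and 61.5 in MKRN1-null fat, and endothelial markers to 156 and 209 and to 101 and 47.9. Their part in the levels of Abca1 and Abcg1 was not tested. The ratio of enzyme to transporter FPKM was 16.1 and 17.6 in WT fat and 16.9 and 13.2 in MKRN1-null fat.

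The acyltransferases passed neither rule. Soat2 was at 29.5 and 23.9 FPKM in WT against 23.0 and 21.6 in MKRN1-null livers (log2 fold change = -0.24 ± 0.12, adjusted p = 0.218). Soat1 was below 1 FPKM in all 4 livers (0.962 and 0.776 in WT, 0.367 and 0.436 in MKRN1-null) and was not tested there. In fat Soat1 was at 2.45 and 5.61 in WT against 3.26 and 0.945 in MKRN1-null libraries, which overlapped.

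Between the tissues no difference in the genotype effect passed. By limma's interaction of tissue and genotype, none of 9917 genes (0%) and so none of the 28 tested here passed an adjusted p under 0.05. At an unadjusted p under 0.05, 2 of the 28 passed, Stard4 (liver effect minus fat effect = 0.91 ± 0.25 on the log2 scale, unadjusted p = 0.00933, adjusted p = 0.483) and Tm7sf2 (0.94 ± 0.39, unadjusted p = 0.0481, adjusted p = 0.643). Over all genes 2.9% passed in that direction and 4.82% in the other. Without fat MKRN1-null 1, which leaves the library with muscle transcripts as the only MKRN1-null fat, 11 of the 28 passed the adjusted threshold, all with the higher value in liver, against 16.9% of all genes in that direction and 9.92% in the other. For Hmgcs1 and Mvd the difference between tissues was -0.32 ± 0.80 and -0.41 ± 0.55, and for Insig1 1.16 ± 0.64.

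Of 14 further sterol genes, 13 were tested in liver and 4 passed the adjusted threshold, Tmem97, Npc2 and Osbp lower and Cyp7b1 higher. Over all genes tested in liver, 16.9% passed it as lower and 2.51% as higher. Cyp7b1, the oxysterol hydroxylase of the alternative bile acid pathway, was at 15.4 and 34.0 FPKM in WT against 84.7 and 124 in MKRN1-null livers, 4.23 times the WT mean (log2 fold change = 2.11 ± 0.40, adjusted p = 0.0316). Tmem97, an SREBP2 target of the endoplasmic reticulum, was at 66.0 and 58.1 and at 43.9 and 33.4 (-0.68 ± 0.16, adjusted p = 0.0452). Npc2, the sterol carrier of the lysosome, was at 30.4 and 24.5 and at 18.9 and 17.1, and Osbp, an oxysterol-binding lipid exchanger, at 15.3 and 18.1 and at 11.6 and 11.4 (adjusted p = 0.0444 and 0.0399). In all 4 the genotypes did not overlap, against 57.5% of all genes as lower and 11.8% as higher. With median-of-ratios scaling Cyp7b1 passed and Tmem97 (-0.47), Npc2 (-0.37) and Osbp (-0.30) did not. Cyp7b1 lost the call without WT 1 (1.57, adjusted p = 0.0541) and without either MKRN1-null liver (adjusted p = 0.0706 and 0.137). Tmem97 and Osbp lost it without any 1 library, and Npc2 without any but WT 2. In fat none of 12 passed either rule.

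Of 6 further targets of the liver X receptors, all had a negative log2 fold change in both tissues, as did 76.3% of all genes tested in liver and 73.3% in fat. In liver Smpdl3a passed the adjusted threshold, at 28.3 and 25.4 FPKM in WT against 17.3 and 16.1 in MKRN1-null livers (-0.65 ± 0.09, adjusted p = 0.0199). It lost the call without WT 1 (adjusted p = 0.0585) and without either MKRN1-null liver (0.0699 and 0.120). The part of macrophages and endothelial cells, whose summed markers are given beside Abcg1, was not tested for these genes either. Pltp, the phospholipid transfer protein, passed the study limits, at 64.1 and 39.1 in WT against 26.4 and 16.3 in MKRN1-null livers (-1.23 ± 0.32, adjusted p = 0.0579). In fat Mylip, a ubiquitin ligase of lipoprotein receptors, passed the study limits, at 17.6 and 18.5 in WT against 9.88 and 8.50 in MKRN1-null fat (-0.91 ± 0.21, adjusted p = 0.680). It did not pass them without fat WT 1 (-0.94) or WT 2 (-0.87). The medians over the 6 were -0.42 in liver and -0.80 in fat, against -0.175 and -0.198 over all genes tested. Srebf1, Lpcat3 and Abca7 passed neither rule in either tissue.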

How the data were processed

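Liver and subcutaneous fat of WT and MKRN1-null mice on an HFD had been sequenced as poly(A) RNA without strand, in 8 libraries. The authors deposited transcript values in FPKM, TPM and coverage for 36780 transcripts, using StringTie 1.3.3b, with HISAT2 and SAMtools (no version given), on the mm10 build. The paper's methods name other tools.

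FPKM was summed per gene. Genes that reached 1 FPKM in 2 or more of the 4 libraries were tested by limma 3.58.1 in R 4.3.3 (lmFit, eBayes with a trend) on log2(FPKM + 1), which understates the change of low genes, with Benjamini-Hochberg adjustment over all genes tested. Errors are standard errors. Depth, computed from coverage and FPKM, limits the precision of scarce transcripts. Python 3.11.15 (pandas 2.3.3, numpy 2.4.6, matplotlib 3.10.9) made the tables and figures. The fits were tested on simulated data, with planted changes larger than most genotype differences given here. That test does not cover smaller changes.

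The members, lists and rules were chosen with earlier results of these data known. Values were to be given in every library for members past a rule, the 4 most abundant enzymes of a tissue and all other roles, and for up to 4 genes past a rule in each further list. Nsdhl, Fdft1, Acat2 and Ebp in fat and Tm7sf2 and Lbr in WT mice were added after their values were seen. Acat2 has a close copy, Acat3, between which reads could be split. Alternatives were a pseudocount of 0.1, TPM, no filter, a filter at 5 FPKM, median-of-ratios scaling, quantile normalization, no trend, a block for replicate number, all 8 libraries in one fit, leaving out each library, and the inner exons of Insig2.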

Additional observations from a re-analysis of the deposited data

How the results depend on the processing

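In liver, 3 of the 32 genes passed the adjusted threshold as reported, 8 with TPM, 1 with a filter at 5 FPKM (Mvd), 1 with median-of-ratios scaling or with quantile normalization (Tm7sf2 as higher, none of the 3), 0 with no filter or with all 8 libraries in one fit, and 0 to 10 when a library was left out. The study limits took 8 genes, 14 with TPM, 5 with all 8 libraries in one fit, and 3 to 18 when a library was left out. In fat the adjusted count of 0 was 0 to 25 when a library was left out, and the 5 genes past the study limits became 2 with no filter, 3 with either scaling, 11 with all 8 libraries in one fit, and 5 to 25 when a library was left out. The interaction count of 0 was 0 to 11 when a library was left out. With the replicate block, fat gave 5 adjusted calls and 13 past the study limits, and liver 2 and 9. Over all genes in liver, 1834 of 10822 tested passed the adjusted threshold as lower in the fit as reported. With TPM 2866 of 11865 did, and 1066 of 6712 with a filter at 5 FPKM. As higher, 440 passed with median-of-ratios scaling and 402 with quantile normalization. The study limits took 1448 as lower, and 2257 with TPM. With the block, the lower calls over all 12164 genes in fat were 264 and 1119. In liver they were 1258 and 1469 of 10822. Of the liver calls as reported, Abcg1 met the filter of 1 FPKM through the WT livers alone, so that only a lower level could be called. Soat1, called lower with TPM, was below 1 FPKM in all 4 livers. Deviations of same-numbered libraries from their group means correlated at 0.027 in liver and 0.029 in fat. Over all genes these values give no sign that the numbers pair the samples within a tissue. With 2 libraries per group they cannot exclude it.

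The enzymes' median kept its sign under every alternative run, at -1.02 to -0.31 in liver and -1.49 to -0.37 in fat. That of the liver X receptor and efflux genes in liver was 0.07 with a filter at 5 FPKM, 0.18 with median-of-ratios scaling, 0.15 with quantile normalization and -0.04 to 0.06 when a library was left out. Signs of single genes also changed. In liver Lbr was 0.04 with quantile normalization, and Nr1h2 and Abca1 were 0.04 and 0.07 with median-of-ratios scaling and 0.03 and 0.07 with quantile normalization. In fat Nr1h2 was 0.02 with median-of-ratios scaling, and Osbp was 0.12 with it and 0.09 with quantile normalization. With a library left out, liver Insig2 ran from -1.81 to 0.33, Abca1 from -0.28 to 0.02 and Abcg5 from -0.04 to 0.44, and in fat Acat2 ran from -0.85 to 0.05 and Ebp from -0.82 to 0.28. The cause was not tested. Of the liver calls, 87.1% were lower as reported, 64.6% with median-of-ratios scaling and 61.3% with quantile normalization.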
